A study of Mus musculus with 6 samples.

Results

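Insr, Tbc1d4 and Kl were 3 of the 54 genes in the table of mouse islet expression analysed here, taken from it by name through their Ensembl identifiers. Insr encodes the insulin receptor, Tbc1d4 a substrate of the kinase AKT that controls glucose transporter traffic, and Kl the co-receptor Klotho. Islets, the hormone-secreting cell clusters of the pancreas, came from C57BL/6 mice fed high-fat food (3 libraries) or normal food (3 libraries), and no other allele or agent is named in the labels. The labels put both diets at 22 weeks, whereas the series design gives 27 weeks. The age and sex of the mice, and how many mice stand behind a library, are not stated in the labels or the series text. Values are FPKM, the fragment count of a gene scaled for its transcript length and for library size, so levels of different genes can be set side by side. How levels compare between libraries depended on further scaling, as given below.

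Insulin secreted by beta cells also acts on islet cells, which carry insulin receptors. The receptor is a tyrosine kinase that signals through insulin receptor substrates, PI3-kinase and AKT. AKT phosphorylates TBC1D4, also called AS160, a GTPase-activating protein for Rab GTPases that holds glucose transporter vesicles inside fat and muscle cells until it is phosphorylated. Klotho pairs with fibroblast growth factor receptors to form the receptor for the hormone FGF23, best known from the kidney, and a shed form circulates in blood.

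All 54 genes had a p-value below 0.01 for the diet difference in the authors' deposited table, computed on these same libraries, although the rule behind the table is not stated. Insr, Tbc1d4 and Kl were chosen by name with their FPKM values in both diets already known. What follows about the diets is therefore a description of these 6 libraries, and no test of it is given. An exact test of 3 against 3 libraries could not go below p = 0.1. In the authors' deposited table the p-values were 0.0026 for Tbc1d4, 0.0072 for Insr and 0.0084 for Kl, which ranked 13, 43 and 48 of 54. The score in the authors' deposited table, negative where the high-fat diet is higher, was -1.06 for Tbc1d4, -1.01 for Kl and -1.01 for Insr. The smallest score in that table was 1.0004 in size, and 3 of the 54, Insr among them, had a score no larger in size than that of Insr.

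None of the 42 markers checked for beta, alpha, delta and PP cells, endocrine cells in general, acinar, duct and endothelial cells, stellate cells or fibroblasts, leukocytes and fat was among the 54 genes. The islet label could therefore not be checked against defining markers, and the cell make-up of the libraries was not measured. Fewer cells of a type and less RNA per cell cannot be told apart in such bulk RNA.

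All 3 genes had a higher mean on the high-fat diet, as had 36 of the 54 genes in the table (66.7%). The ratio of mean FPKM, high-fat over control, was 1.68 for Insr, 1.83 for Tbc1d4 and 2.11 for Kl. The median log2 ratio of the 3 was 0.87, beside 0.81 over all 54 genes and 1.04 over the 36 that were higher on the high-fat diet. Among those 36, Kl ranked 17, Tbc1d4 24 and Insr 31 by the size of the ratio, so the 3 genes lay in the middle and lower part of that range, which ran from 0.63 to 3.64 on the log2 scale. Every high-fat library lay above every control library for 1 of the 3, Tbc1d4, against 33 of all 54 genes (61.1%). Counting separation in either direction, the table held 51 of 54 (94.4%).

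Insr (ENSMUSG00000005534) lies on the minus strand of chromosome 8 from 3122061 to 3279617 on GRCm38, where GENCODE M21 gives it 5 transcripts, 2 of them protein-coding. Its FPKM is per gene and does not separate receptor isoforms. Insr stood at 10.8, 8.89 and 12.9 FPKM in high-fat replicates 1, 2 and 3, against 8.98, 5.32 and 5.08 FPKM in control replicates 1, 2 and 3. Control replicate 1 lay just above high-fat replicate 2, by 0.0915 FPKM, while the other controls lay well below every high-fat library. The means were 10.9 ± 2.02 FPKM on the high-fat diet and 6.46 ± 2.18 FPKM on the control diet (SD, n = 3 each). The difference of mean log2 FPKM was 0.78 with a standard error of 0.31. Insr was the highest of the 3 genes in every library and ranked sixth or seventh of the 54 genes by level in all 6.

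Tbc1d4 (ENSMUSG00000033083) lies on the minus strand of chromosome 14 from 101442360 to 101609191, with 10 annotated transcripts, 4 of them protein-coding. It stood at 3.42, 3.18 and 3.79 FPKM in high-fat replicates 1, 2 and 3, against 2.79, 1.34 and 1.54 FPKM in control replicates 1, 2 and 3. The diets did not overlap, and the lowest high-fat library was 0.387 FPKM above the highest control, which is 24.6% of the difference between the means. The means were 3.47 ± 0.307 FPKM on the high-fat diet and 1.89 ± 0.789 FPKM on the control diet (SD, n = 3 each). The difference of mean log2 FPKM was 0.95 with a standard error of 0.33. The spread was unequal: the SD was 8.86% of the mean among high-fat libraries and 41.7% of the mean among controls. Among the 26 genes that averaged 1 FPKM or more, that put Tbc1d4 at rank 21 for relative spread on the high-fat diet and at rank 8 on the control diet, counted from the most variable.

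Kl (ENSMUSG00000058488) lies on the plus strand of chromosome 5 from 150952607 to 150993817, with 2 annotated transcripts, 1 of them protein-coding. It was the lowest of the 3 genes in every library. Kl stood at 1.84, 1.48 and 2.38 FPKM in high-fat replicates 1, 2 and 3, against 1.49, 0.461 and 0.750 FPKM in control replicates 1, 2 and 3. The diets touched at one point, where control replicate 1 exceeded high-fat replicate 2 by 0.00925 FPKM. The means were 1.90 ± 0.451 FPKM on the high-fat diet and 0.901 ± 0.533 FPKM on the control diet (SD, n = 3 each). The difference of mean log2 FPKM was 1.22 with a standard error of 0.53. Kl was also the most variable of the 3, with an SD of 23.7% of the mean among high-fat libraries and 59.1% among controls. It ranked 3 on the high-fat diet and 2 on the control diet for relative spread among the same 26 genes. None of the 3 genes shares annotated exon bases with another gene.

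**Figure D1:**
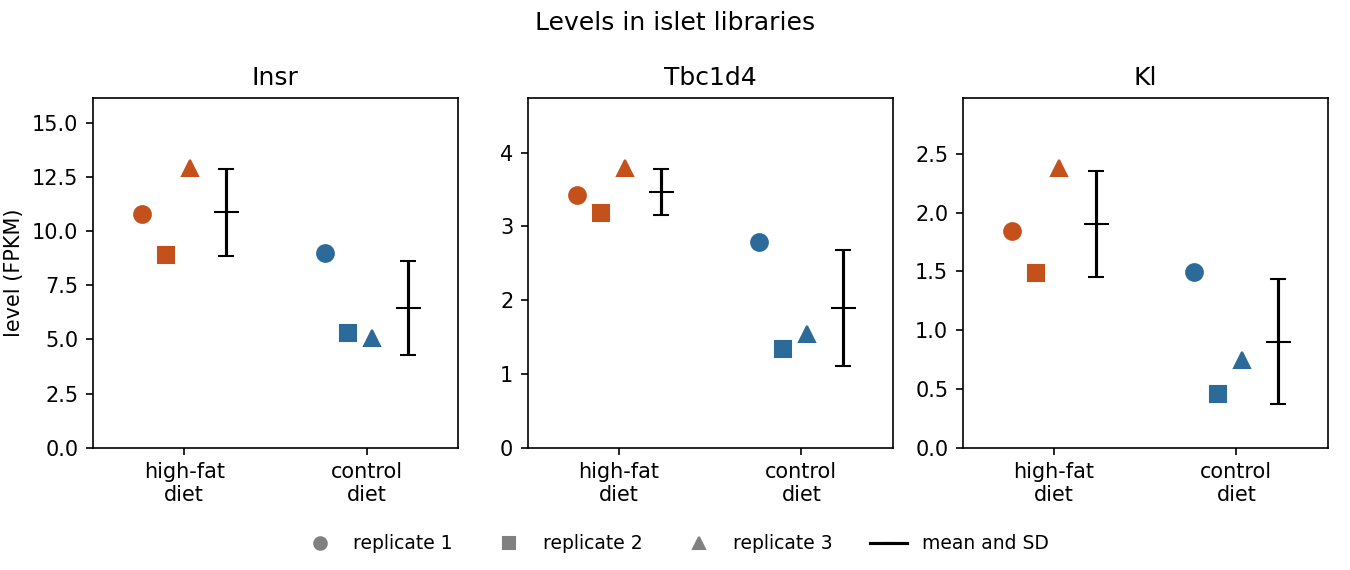
Levels in FPKM of Insr, Tbc1d4 and Kl in each library, high-fat diet on the left and control diet on the right of each panel, with the mean and SD of 3 libraries beside the points. Control replicate 1 is the highest control for each gene (8.98, 2.79 and 1.49 FPKM), and high-fat replicate 2 is the lowest high-fat library (8.89, 3.18 and 1.48 FPKM).

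The promoters of Tbc1d4 and Kl are shown because the RefSeq promoter table holds both. The levels of these genes ran in the same order of libraries within each diet. That order was replicate 3 above 1 above 2 on the high-fat diet and replicate 1 above 3 above 2 on the control diet. Both orders together were also found in 13 of the 33 other genes with a higher mean on the high-fat diet. Both are the 250 bases that end just before the annotated start in that table (GRCm38.p6), 5′ to 3′ on the strand of the gene. Capitals mark GGGCGG, the GC box, or its reverse complement CCGCCC. Tbc1d4 spans chr14:101609192-101609441 on the minus strand and Kl spans chr5:150952357-150952606 on the plus strand. For Insr no sequence is shown, because the promoter table has no entry for it.
Tbc1d4: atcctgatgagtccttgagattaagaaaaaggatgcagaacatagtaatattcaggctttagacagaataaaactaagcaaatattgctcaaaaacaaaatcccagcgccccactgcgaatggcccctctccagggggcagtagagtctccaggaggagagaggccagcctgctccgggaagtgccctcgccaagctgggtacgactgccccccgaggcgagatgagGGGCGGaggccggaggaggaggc
Kl: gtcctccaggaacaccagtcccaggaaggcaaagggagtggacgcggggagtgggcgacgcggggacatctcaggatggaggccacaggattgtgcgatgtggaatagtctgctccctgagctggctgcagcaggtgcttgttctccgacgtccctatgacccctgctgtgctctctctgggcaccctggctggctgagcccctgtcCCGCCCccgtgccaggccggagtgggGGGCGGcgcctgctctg

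The GC box occurred once upstream of Tbc1d4, beginning 23 bases before the start, and at 2 places upstream of Kl, beginning 43 and 17 bases before it. It was present in 32.7% of the 32851 upstream windows of this length in that table. On both strands, neither window held the E-box CACGTG (found in 6.02% of windows), the forkhead element GTAAACA (3.17%), the TATA box letters TATAAA (12.4%), CCAAT (33.8%) or the cyclic AMP response element TGACGTCA (1.55%). The matches did not overlap each other. The Kl window was the richer in G and C, at 66.8% with 13 CpG pairs, against 54.8% with 9 CpG pairs for Tbc1d4 and medians of 52.4% and 6 over all windows. A match is a description of the letters and says nothing of binding.

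The 3 genes shared the order of libraries on the high-fat diet, with replicate 3 highest and replicate 2 lowest. That order was common in the table, in 18 of the 33 other genes with a higher mean on the high-fat diet, and high-fat replicate 2 was the lowest in 27 of the 33. On the control diet replicate 1 was the highest for all 3, and replicates 2 and 3 changed places between Insr, where replicate 2 was the higher, and the other two. Control replicate 1 stood at 1.73 times the mean of the other controls for Insr, 1.94 times for Tbc1d4 and 2.47 times for Kl. It was also the highest control for 27 of those 33 genes, and over all 33 it stood at a median of 1.58 times the mean of the other controls. High-fat replicate 2 stood at 0.749, 0.882 and 0.703 times the mean of the other high-fat libraries for Insr, Tbc1d4 and Kl, beside a median of 0.801 over the same 33 genes. Over all 51 other genes, control replicate 1 was the highest control in 43. That library thus stood apart across much of the table. High-fat replicate 2 was counted only among the genes with a higher mean on the high-fat diet. The part of these libraries in the values of the 3 genes was not tested.

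Set against control replicate 1 alone, the high-fat mean was 1.21 times as high for Insr, 1.24 times for Tbc1d4 and 1.27 times for Kl. Set against the mean of control replicates 2 and 3, it was 2.09, 2.41 and 3.14 times as high. Without control replicate 1, all 3 genes were higher in every high-fat library than in every remaining control, as were all 36 genes with a higher mean on the high-fat diet, and all 54 genes (100%) were then separated in one direction or the other. Without high-fat replicate 2 these counts were again 36 and 54, with ratios of means for the 3 genes of 1.84 for Insr, 1.91 for Tbc1d4 and 2.34 for Kl. Leaving out any other single library kept the overlap of Insr and Kl and the separation of Tbc1d4.

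**Figure D2:**
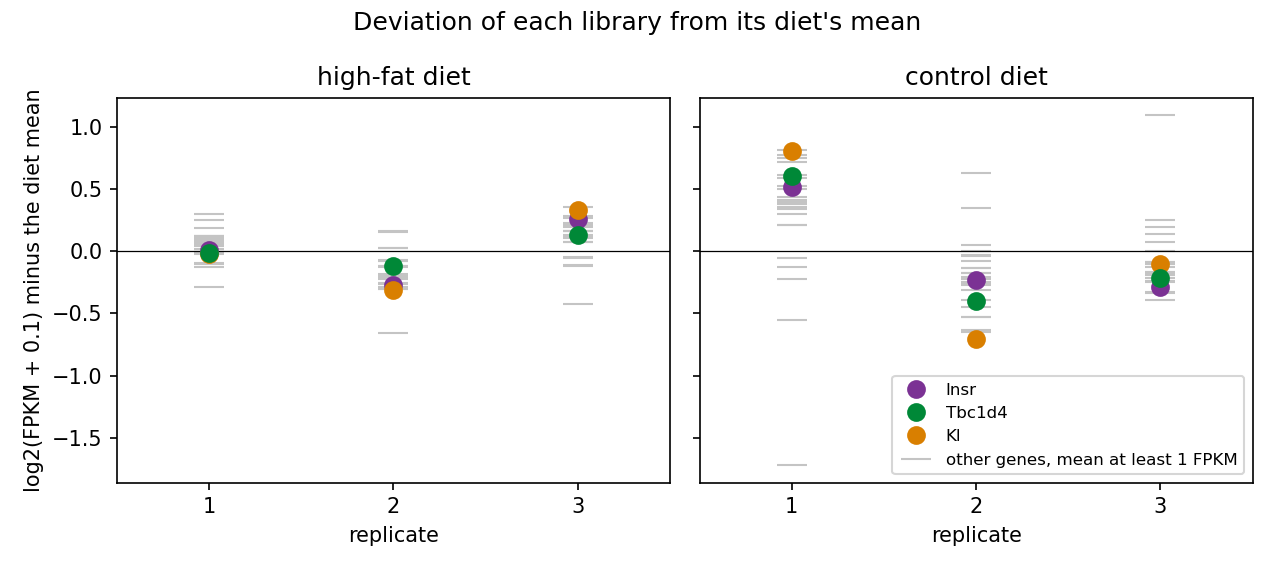
Each library's log2(FPKM + 0.1) minus the mean of its diet, high-fat diet on the left and control diet on the right, for Insr, Tbc1d4, Kl (filled points) and the other 23 genes that averaged 1 FPKM or more (grey dashes). Control replicate 1 stood 0.52, 0.61 and 0.80 above its diet's mean for Insr, Tbc1d4 and Kl, and high-fat replicate 2 stood 0.27, 0.12 and 0.31 below its own.

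Ratios between the genes within a library do not change when all levels of that library are multiplied by the same factor. Quantile normalization can change them and was not run on them. The level of Insr over that of Tbc1d4 was 3.15, 2.79 and 3.41 in high-fat replicates 1, 2 and 3, against 3.21, 3.97 and 3.31 in control replicates 1, 2 and 3. The diets overlapped, and the 6 ratios ran from 2.79 to 3.97. Insr on its own varied 2.54-fold and Tbc1d4 2.83-fold between lowest and highest library. Ratios to the other genes of the table were not computed, so whether this range is narrow for the table is unknown. The difference in mean log2 ratio, high-fat minus control, was -0.16 with a standard error of 0.13. It was -0.07 without control replicate 2 and -0.09 without high-fat replicate 2.

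Kl over Insr was 0.170, 0.167 and 0.184 in high-fat replicates 1, 2 and 3, against 0.166, 0.0866 and 0.148 in control replicates 1, 2 and 3. Every high-fat ratio lay above every control ratio, by 0.000673 at the closest point, since control replicate 1 was nearly level with high-fat replicate 2. The log2 difference was 0.43 with a standard error of 0.29, and without control replicate 2 it was 0.15. Kl over Tbc1d4 was 0.537, 0.466 and 0.628 in high-fat replicates 1, 2 and 3, against 0.534, 0.344 and 0.488 in control replicates 1, 2 and 3. These overlapped, with a log2 difference of 0.27, a standard error of 0.23, and 0.08 without control replicate 2. These log2 differences were all smaller in size than those of the levels (0.78, 0.95 and 1.22). Each is the difference between 2 of those level values, all positive, so it had to be smaller than the larger of them.

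**Figure D3:**
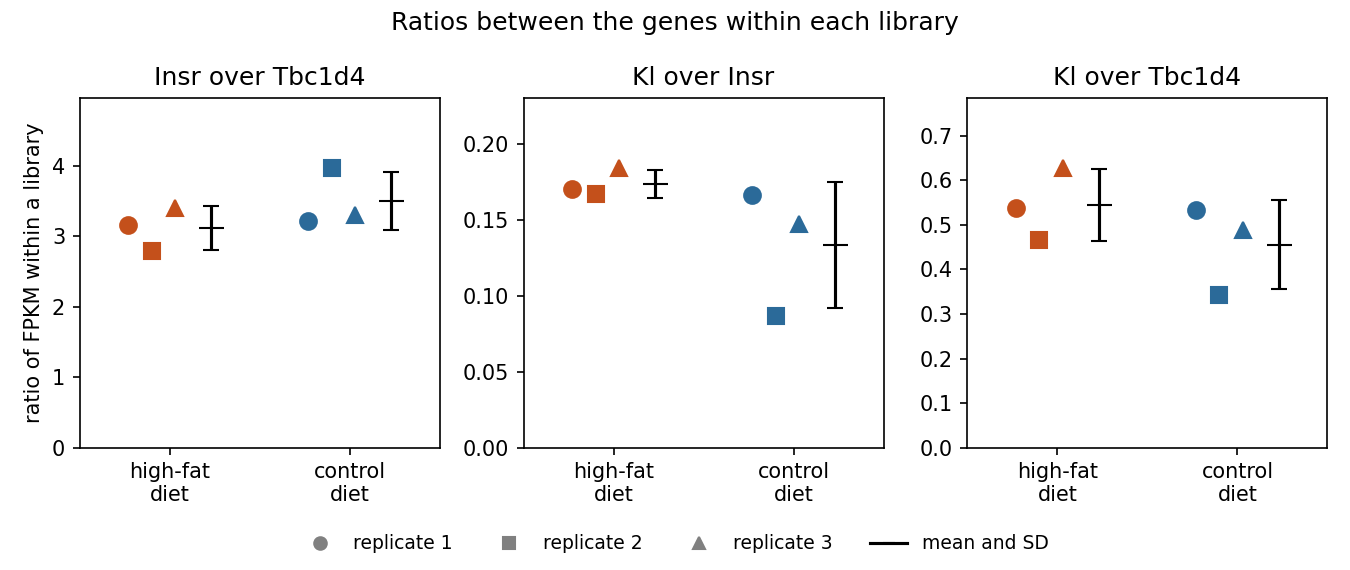
Ratio of FPKM between 2 genes within each library, high-fat diet on the left and control diet on the right of each panel, with mean and SD of 3 libraries. Insr over Tbc1d4 lies between 2.79 and 3.97 in all 6 libraries, and the low control point of the other panels is replicate 2, at 0.0866 for Kl over Insr and 0.344 for Kl over Tbc1d4.

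The diet difference was also read relative to the other 51 genes, since control replicate 1 was high for many of them. Divided by the median FPKM of those genes in its library, Tbc1d4 was 3.69, 3.59 and 3.72 in high-fat replicates 1, 2 and 3, against 2.63, 2.46 and 2.52 in control replicates 1, 2 and 3. On this scale the Tbc1d4 libraries drew close together within each diet, with an SD of 3.36% of the mean among controls in place of 41.7%. The control SD also fell for Insr, to 9.07% of the mean from 33.8%, and for Kl, to 24.6% from 59.1%. The ratio of means of Tbc1d4 was 1.45. Insr became 11.6, 10.0 and 12.7 in high-fat replicates, against 8.44, 9.77 and 8.32 in control replicates, a ratio of means of 1.29. Kl became 1.98, 1.68 and 2.34 in high-fat replicates, against 1.40, 0.846 and 1.23 in control replicates, a ratio of means of 1.72.

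All 3 genes were separated between diets on this relative scale, as were 46 of the 54 genes in the table (85.2%), 28 of them higher on the high-fat diet (51.9%). The divisor was itself a median over genes picked for a diet difference, at 0.929, 0.886 and 1.02 FPKM in high-fat replicates 1, 2 and 3, against 1.06, 0.545 and 0.611 FPKM in control replicates 1, 2 and 3. It was thus 1.06 FPKM in control replicate 1, above every other library. Quantile normalization over the 54 genes, which keeps ranks alone, left log2 ratios of 0.10 for Insr, 0.42 for Tbc1d4 and 0.43 for Kl. As deposited they were 0.75, 0.87 and 1.08. All 3 genes then touched or overlapped between diets under quantile normalization. It too used the picked genes, 36 of the 54 with a higher mean on the high-fat diet, so it can also take out a shift that they share.

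**Figure D4:**
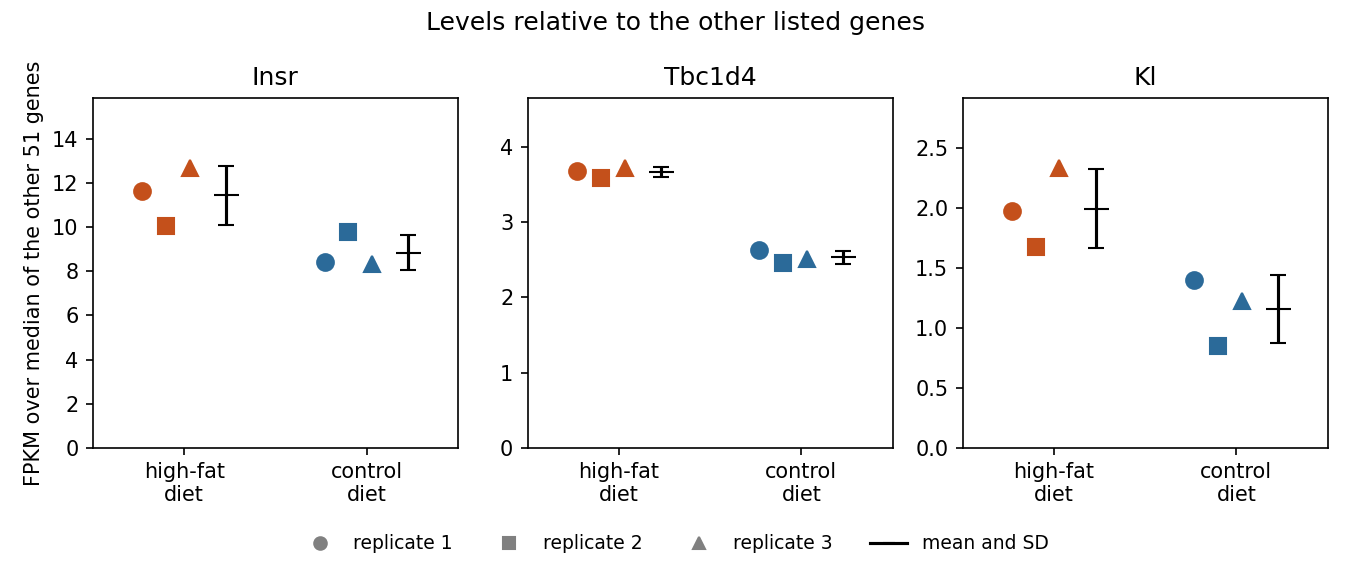
FPKM of each gene divided by the median FPKM of the other 51 genes in the same library, high-fat diet on the left and control diet on the right of each panel, with mean and SD of 3 libraries. Tbc1d4 lies between 3.59 and 3.72 in high-fat libraries and between 2.46 and 2.63 in control libraries.

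**Figure D5:**
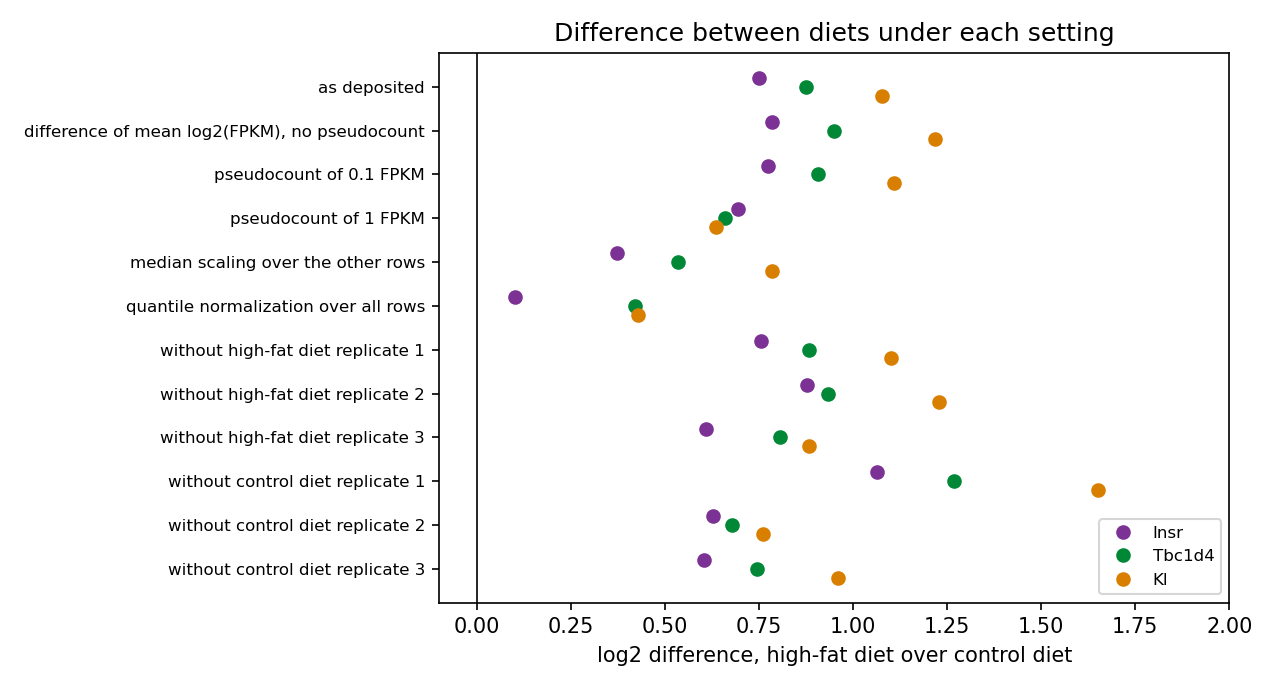
The log2 difference between diets, high-fat over control, for each gene as deposited and under each alternative setting, 1 row per setting. All points lie above 0, from 0.10 for Insr under quantile normalization to 1.65 for Kl without control replicate 1.

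Likeness in how libraries departed from their own diet's mean, which leaves the diet difference out, was measured as the mean absolute difference of centred log2(FPKM + 0.1) over the 6 libraries. Among 25 other genes that averaged 1 FPKM or more, the closest to Insr were Arntl, a core clock transcription factor, at 0.03, Nudt4, a phosphohydrolase of diphosphoinositol phosphates, at 0.06, and Arl10, an ADP-ribosylation factor-like GTPase, at 0.06. The closest to Tbc1d4 were Tacc2, a centrosomal coiled-coil protein gene, at 0.08, Arntl at 0.08, and Gabarapl1, an ATG8-family autophagy gene, at 0.09. The closest to Kl were Fkbp5, a co-chaperone of the glucocorticoid receptor, at 0.07, Pcyox1l, a prenylcysteine oxidase-like gene, at 0.08, and Cpne4, a copine, at 0.10. The medians over the 25 genes were 0.13 for Insr, 0.13 for Tbc1d4 and 0.23 for Kl. These distances used FPKM as deposited, without scaling of libraries, so a level shared across a whole library counts as likeness. Likeness on scaled values was not measured, so the names are not a sign of a link particular to these genes.

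Insr and Tbc1d4 differed by 0.11 on this measure, Tbc1d4 and Kl by 0.17, and Insr and Kl by 0.18, so none of the 3 was among the 3 closest genes of another. Centred on the mean over all 6 libraries instead, so that the diet difference counts, Arl10 and Nudt4 were the closest to Insr at 0.05 and 0.07, while Arntl moved to 0.43. Fkbp5, at 0.08, and Pcyox1l, at 0.12, were again the closest to Kl, while Cpne4 moved from place 3 to place 10. For Tbc1d4, Gabarapl1 was at place 2, Tacc2 moved from place 1 to place 10 and Arntl from place 2 to place 17. Insr and Tbc1d4 were then 0.10 apart, which put Insr at place 3 for Tbc1d4, and Tbc1d4 was at place 3 for Kl. With a pseudocount of 1 FPKM, only 1 of the 3 closest genes of Insr and 2 of the 3 of both Tbc1d4 and Kl were the same, and Kl entered the closest 3 of Insr, so the names depend on this setting. Arntl shares 33 exon bases and Gabarapl1 570 exon bases with a gene on the opposite strand, and the strand setting of the counting is not stated.

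Of the rest of each gene's pathway little was in the table. Of 49 genes of insulin and IGF signalling, 2 were present, Insr and Igfbp6, whose protein binds insulin-like growth factors. Igfbp6 was listed at 0, 0.0596 and 0 FPKM in high-fat replicates 1, 2 and 3, against 1.96, 0.523 and 0.775 FPKM in control replicates 1, 2 and 3. It went the other way from Insr, with every high-fat library below every control. Separation in one direction or the other was found for 51 of the 54 genes (94.4%), so it is not particular to Igfbp6. Of 21 genes of glucose transporter traffic, Tbc1d4 was the 1 present, and of 16 genes of Klotho and endocrine FGF signalling, Kl was the 1 present. The insulin receptor substrates, AKT kinases, glucose transporters, fibroblast growth factor receptors and Klb were not analysed here.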

How the data were processed

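The authors' deposited table gives 1 FPKM column for each of 6 islet RNA libraries, with group means and SDs, p-values, log2 fold changes, a score and an effect size per the file headers. The submitters' processing notes name StringTie 1.3.3, HISAT2 2.1.0, Trimmomatic 0.36 and the GRCm38 build; annotation, strand setting and the test behind the deposited p-values are unstated. Per the labels' protocols, total RNA libraries were made from Trizol extracts. FPKM gives no read totals, so depth and counting error are unknown. Nothing says that replicates are separate animals.

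All 54 Ensembl identifiers matched a symbol. Means, SDs, ratios and standard errors were computed from FPKM with Python 3.11.15 and pandas 2.3.3, without a pseudocount unless one is named; centred values used 0.1 FPKM. The recomputed log2 ratios equal the authors' deposited log2 fold changes. The functions were checked on simulated data. Named genes were Insr, Tbc1d4 and Kl, the 3 rows nearest each among those with a mean of at least 1 FPKM, and rows in 3 pathway lists. Members and lists were chosen with earlier results of these data known. Alternatives were other pseudocounts, median scaling, quantile normalization and leaving out each library.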

Additional observations from a re-analysis of the deposited data

How the results depend on the processing

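The ratios of means of Insr, Tbc1d4 and Kl kept their direction under every alternative run. The within-library ratios kept theirs with a pseudocount of 0.1 FPKM and with each library left out. Quantile normalization was not run on those ratios. Median scaling over the other 51 genes gave a log2 ratio of 0.37 for Insr, and quantile normalization gave 0.10 for Insr and 0.42 for Tbc1d4; the cause was not tested. Leaving out 1 library gave 0.60 to 1.06 for Insr, 0.68 to 1.27 for Tbc1d4 and 0.76 to 1.65 for Kl, in each case highest without control replicate 1. The count of 51 separated genes was 24 of 26 with a mean of at least 1 FPKM, since fewer genes were counted, 46 under median scaling, and 51 to 54 with 1 library left out. Over all alternatives, 73 values stayed within the spread between replicates (for the count of genes, near the original count) and 4 did not. For levels and likeness that spread was wide, a pooled SD of log2 FPKM of 0.37 for Insr, 0.41 for Tbc1d4 and 0.65 for Kl. Kl under quantile normalization, at 0.43 against 1.08, still counted as within it. The likeness distances were themselves smaller than this spread, so their staying within it says little, and the closest genes did change. No paired analysis was possible because the labels give the libraries of the diets no shared numbers. The pseudocount of 1 FPKM for likeness was chosen after seeing the data. Read depth is unknown, so how it limits each gene could not be measured.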
